A study of Homo sapiens with 4 samples.

Results

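The genes described here move proteins into the endoplasmic reticulum, fold them there and remove those that fail. They were chosen as a list of 49 symbols, with earlier results of these data known. The genes were measured in NOMO-1, an established human cell line from a leukaemia of the monocyte lineage. Each gene was read from its brightest probe set among those that name no other gene. This gave 46 genes of the 12892 tested, and all 46 lay above the limit on dim genes (a mean log2 of 6.70). PDIA3, TXNDC5 and SEC61G had no probe set naming them alone and were not analysed here. P4HB had 2 probe sets, and each other gene had 1.

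Knock-down of ZFX, which encodes an X-linked zinc finger protein that binds promoters, was represented by 2 arrays, 1 per short hairpin RNA virus (ZFX-SH1 and ZFX-SH3, genotype labelled ZFX knock-down). The 2 controls, labelled ZFX wild type, were cells given a scrambled hairpin (SCR) and cells given a lentivirus with GFP (LEN-GFP), on 1 array each. Every culture was infected at a multiplicity of infection of 1, and RNA was taken 48 h after selection. The comparison asks which genes differ when ZFX is reduced. Each construct had a single array, and the labels do not say whether cultures were grown separately, so p-values reflect differences among constructs as well as among arrays. In bulk RNA, fewer cells with a given programme and less RNA per cell cannot be told apart.

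Proteins bound for the surface, for secretion or for granules enter the endoplasmic reticulum through the SEC61 channel. Inside, Hsp70 and Hsp90 chaperones and lectin chaperones hold them while disulfide isomerases form and reshuffle their cysteine bonds. Chains that fail are passed back to the cytosol, ubiquitinated and destroyed by the proteasome. The sensors ATF6, ERN1 (also called IRE1) and EIF2AK3 (also called PERK) watch the folding load. ERN1 splices the mRNA of XBP1, and the XBP1 and ATF6 factors then raise transcription of many chaperone and degradation genes, the unfolded protein response. Myeloid cells that make granule enzymes carry a large load of this kind.

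The knock-down itself was partial in array intensity. ZFX had a log2 intensity of 10.13 on SH1 and 10.12 on SH3, against 10.65 on LEN-GFP and 10.66 on SCR. The hairpin mean was at 69.3% of the control intensity (difference -0.53, SE 0.10). With both hairpins in the fit, ZFX had an unadjusted p of 0.00386 and an adjusted p of 0.797 in limma, so it was not called. Its difference from the controls was -0.52 on SH1 and -0.54 on SH3. Median intensities lay between 186.0 and 189.0 on the hairpin arrays and between 184.8 and 189.8 on the control arrays. All 8 myeloid markers measured lay above the limit on dim genes, with LYZ, the lysozyme gene, between 14.20 and 14.37 and the myeloid factor SPI1 between 11.23 and 11.32. All 5 T cell markers lay below the limit on dim genes, but markers of other lineages did not all do so. Above it lay 3 of 5 fibroblast, 3 of 5 epithelial, 3 of 8 B and plasma cell and 1 of 2 erythroid markers measured. The epithelial marker KRT18 lay between 9.95 and 10.20.

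Most of the 46 genes lay somewhat lower with the hairpins, and none passed on its own when both hairpins were tested against both controls. The mean of both hairpins was below the mean of both controls for 39 of 46 genes, where 50.8% of all genes tested were. Both hairpin arrays lay below both controls for 24 genes, where 19% of all genes did so, and above both controls for 2 genes, ERN1 and SDF2, where 18.2% did so. The median difference was -0.20 on the log2 scale over the 46 genes and -0.0029 over all genes. limma called 0 of the 46 genes, and 0% of all genes, at an adjusted p of 0.05 (smallest adjusted p = 0.797). At an unadjusted p under 0.05 there were 9 lower and 0 higher members, where 3.26% and 2.78% of all genes were lower and higher. The number of members at that p rose without SH1 and fell without either control, and so did the number over all genes. The median difference over the members was -0.25 without SH1, -0.15 without SH3, -0.17 without LEN-GFP and -0.24 without SCR. The nearest hairpin and control arrays were at least 0.2 apart for 8 members below the controls and 0 above, where 2.92% and 2.44% of all genes were. Ordinary statistics without moderation gave 5 of the 46 members at an unadjusted p under 0.05, and 686 of all 12892 genes. After adjustment they gave 0 members and 0 genes.

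**Figure D1:**
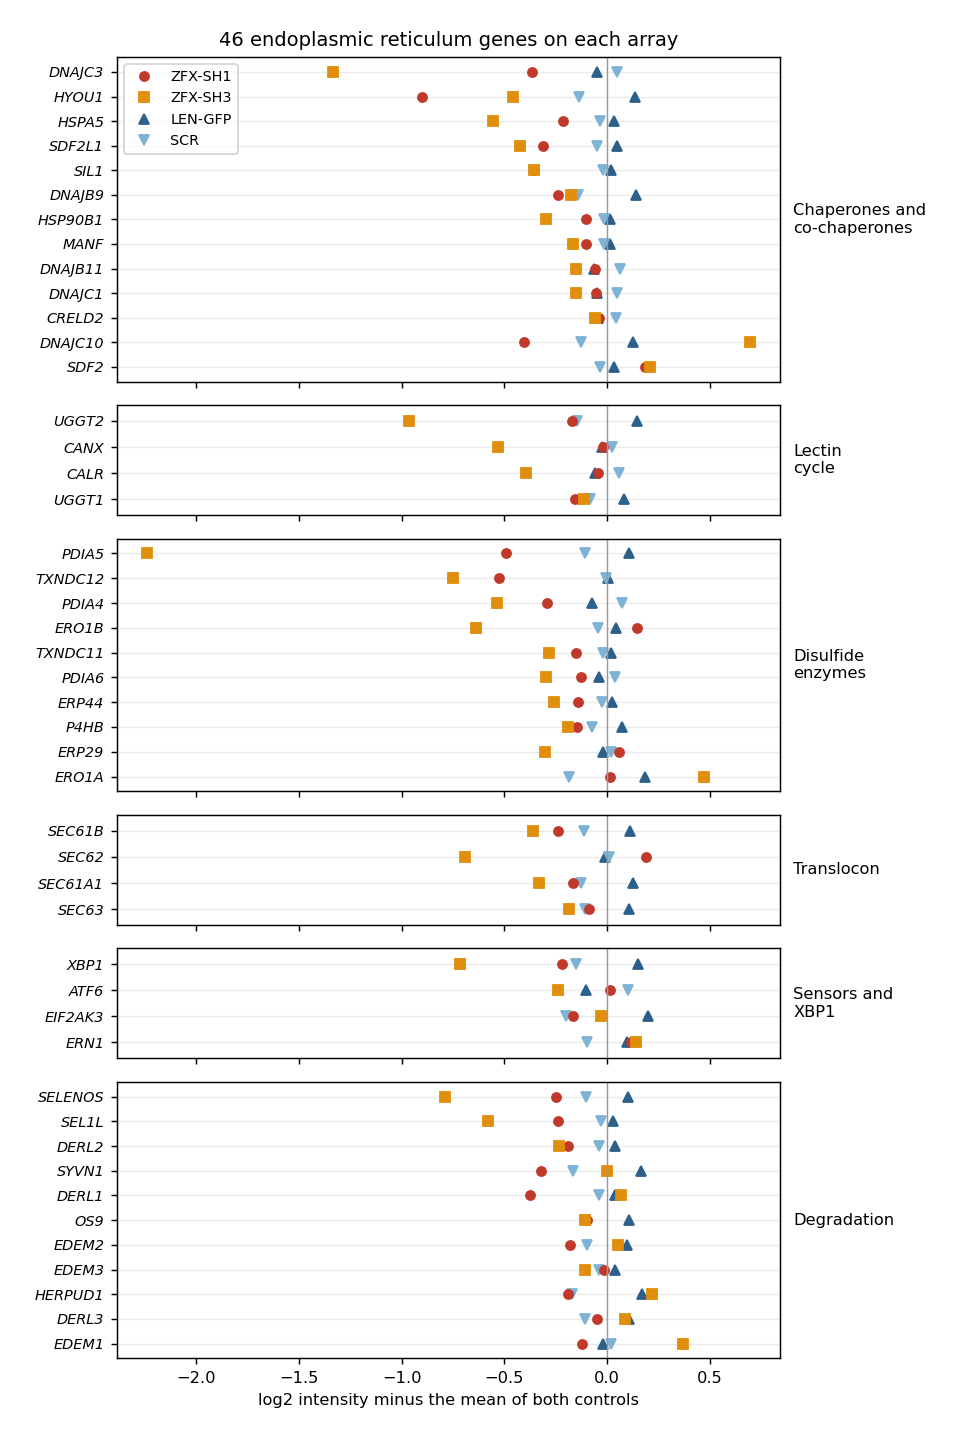
Each row is 1 of the 46 genes, grouped by role, and the horizontal axis is log2 intensity minus the mean of both controls on each of the 4 arrays. The hairpin points lie left of both controls for 24 genes, and PDIA5 on ZFX-SH3 lies farthest out, at -2.24.

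The hairpins did not contribute alike. The median difference from the mean of both controls was -0.15 for SH1 and -0.25 for SH3, where the medians over all genes were -0.00062 and -0.0015. SH1 lay below both controls for 30 genes (34.8% of all genes) and SH3 for 35 (39.8% of all genes). Set alone against both controls in limma, SH3 had 15 members called lower and 2 called higher, where 6.9% and 6.27% of all genes were called. SH1 had 1 member called lower and 0 higher, where 0.248% and 0.171% of all genes were called. In these fits the lone array is assumed to vary like the control pair, and both fits use the same controls, so that their calls are not independent of each other. With ordinary statistics neither fit called a member. The controls also stood apart from each other: SCR lay below LEN-GFP for 34 of the 46 genes, where 58.6% of all genes did, by a median of -0.079, where the median over all genes was -0.033. For 17 of the 46 genes the controls were farther apart than the group means were, a count that was not made over all genes.

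A sequence that these genes partly share was looked up in the promoters of RefSeq (GRCh38.p14, 250 bases before to 50 bases after each annotated start), in which 43 of the 46 genes were found by symbol. The endoplasmic reticulum stress element, bound by ATF6 with the CCAAT factor NF-Y and also used by XBP1, reads CCAAT, then 9 bases of any kind, then CCACG, and it was searched exactly and on both strands. It stood in the promoter of 8 of the 43 genes (18.6%), against 0.157% of the 10210 tested genes with a promoter and 0.0769% of all 35116 promoters. These 8 are among the 16 tested genes behind the 0.157%. The factors that bind the element act on genes of this kind, so a high share came with the choice of the list and is no result of the arrays. The following windows, printed 5′ to 3′ on the strand of the gene, show this element in the 8 members that hold it. Capitals mark the CCAAT and CCACG parts, or ATTGG and CGTGG where the element runs in reverse, and positions are counted from the annotated start, with negative ones before it.
HSPA5, chr9:125241386-125241414, minus strand, element from -66 to -48: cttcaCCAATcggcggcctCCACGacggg
HSP90B1, chr12:103930211-103930239, plus strand, element from -194 to -176: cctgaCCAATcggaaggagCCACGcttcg
HSP90B1, chr12:103930316-103930344, plus strand, element from -89 to -71: gggtgCGTGGtgcggcgcgATTGGtgggt
CALR, chr19:12938379-12938407, plus strand, element from -225 to -207: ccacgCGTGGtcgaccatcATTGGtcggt
CANX, chr5:179698773-179698801, plus strand, element from -151 to -133 of one of its starts: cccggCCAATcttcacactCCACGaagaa
PDIA6, chr2:10812848-10812876, minus strand, element from -86 to -68 of one of its starts: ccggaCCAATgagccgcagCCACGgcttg
ERO1B, chr1:236282178-236282206, minus strand, element from -243 to -225: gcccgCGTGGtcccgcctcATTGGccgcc
XBP1, chr22:28800598-28800626, minus strand, element from -52 to -34 of one of its starts: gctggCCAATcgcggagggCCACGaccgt
CRELD2, chr22:49918549-49918577, plus strand, element from -80 to -62: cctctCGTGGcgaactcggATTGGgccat

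A shorter form of the element, ATTGG, 1 base of any kind, then CCACG, known from the promoter of HERPUD1, was found for 3 of the 43 genes (6.98%), against 0.127% of the tested genes with a promoter and 0.0541% of all promoters. Its windows are shown because HYOU1 and SDF2L1, which hold it, are among the members with the widest separation of the groups, and capitals mark the fixed letters of the element or of its reverse.
HERPUD1, chr16:56932020-56932040, plus strand, element from -117 to -107: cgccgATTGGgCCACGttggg
HYOU1, chr11:119057375-119057395, minus strand, element from -185 to -175: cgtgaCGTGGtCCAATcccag
HYOU1, chr11:119057269-119057289, minus strand, element from -79 to -69: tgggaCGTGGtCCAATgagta
SDF2L1, chr22:21642109-21642129, plus strand, element from -188 to -178: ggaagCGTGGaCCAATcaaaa

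Other letters were searched in the same windows and on both strands. TGACGTGG, the core of the element bound by XBP1 and ATF6, was found for DNAJC10, HYOU1, SEC62 and TXNDC11 (9.3% of members, 1.19% of the tested genes with a promoter and 0.729% of all promoters), and in HYOU1 it overlaps the farther of its short elements. TGATGCAAT, a composite element of ATF4 and C/EBP factors, was found for 0 of the 43 genes, with 0.215% of the tested genes and 0.236% of all promoters. AGGCCT, the core that ZFX is known to bind, was found for 8 members (18.6%), namely CANX, DNAJB9, DNAJC3, ERN1, ERO1B, ERP44, P4HB and UGGT2. For that short and palindromic core the shares were 14.5% of tested genes and 10.9% of all promoters.

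Among the 8 members with the full stress element all 8 had a lower mean with the hairpins, where 39 of the 46 members and 50.8% of all genes did. Their median difference was -0.074 on SH1 and -0.46 on SH3. On SH3 these members lay between -0.72 and -0.060 from the controls, CRELD2 being the nearest to them. Of the 32 members with neither form of the element 27 had a lower mean. Their medians were -0.16 on SH1 and -0.21 on SH3, where they spread from -2.24 to 0.70. Of the 3 members with the short form 2 had a lower mean, and the medians were -0.31 on SH1 and -0.42 on SH3. The full element was also found in 8 tested genes outside the list (ALG12, EIF2A, FICD, SERP1, SYNPO, TMEM120A, TRIM5 and ZNF17). Of these 5 had a lower mean, with medians of -0.027 on SH1 and 0.057 on SH3 and a range of -0.18 to 0.18 on SH3. These groups of genes are described without a test of their difference, and a match of letters is a description of the sequence only.

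**Figure D2:**
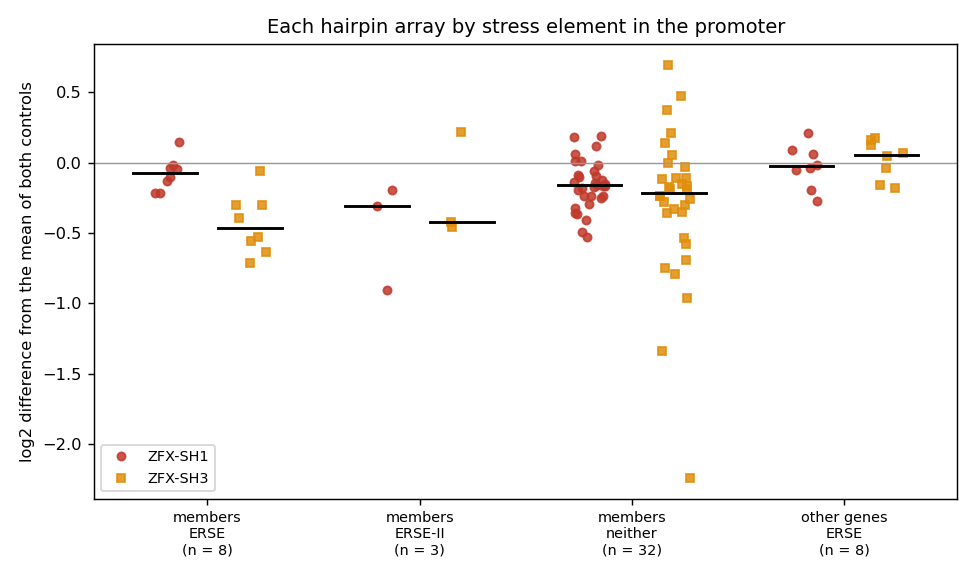
Points are genes, in circles for ZFX-SH1 and squares for ZFX-SH3, placed by log2 difference from the mean of both controls and grouped by the stress element found in their promoter. Black bars are medians, which for the 8 members with the full element lie at -0.074 on ZFX-SH1 and -0.46 on ZFX-SH3.

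The chaperones and their cofactors (13 genes, 11 with a lower mean, median -0.20) were led by genes of the Hsp70 cycle. HSPA5, the Hsp70 chaperone of the endoplasmic reticulum that also holds the sensors inactive, had log2 intensities of 12.75 on SH1 and 12.41 on SH3, against 13.00 on LEN-GFP and 12.93 on SCR. Both hairpin arrays lay below both controls, and SH3 lay farther down than SH1. The difference was -0.38 (SE 0.13, unadjusted p = 0.0314 in limma), and SH3 alone was at 68.1% of the controls (limma adjusted p = 0.0035). HSP90B1, the Hsp90 chaperone of the same compartment, stood at 13.25 and 13.05 on SH1 and SH3, against 13.36 and 13.33 on LEN-GFP and SCR. Its groups did not overlap, and its difference of -0.20 (SE 0.088) was smaller than that of HSPA5, with an adjusted p of 0.0269 for SH3 alone in limma.

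Of the cofactors of HSPA5, DNAJC3 and HYOU1 differed between the hairpins in size, while SIL1 and SDF2L1 did so little. DNAJC3, a J-domain co-chaperone that also inhibits the kinase EIF2AK3, had 10.60 on SH1 and 9.63 on SH3, against 10.91 on LEN-GFP and 11.01 on SCR. Most of its difference of -0.85 (SE 0.33) came from SH3, which was at 39.6% of the controls (limma adjusted p = 4.98e-04). HYOU1, a large Hsp70-like chaperone that exchanges nucleotide on HSPA5, ran the other way round, with 9.01 on SH1 and 9.45 on SH3, against 10.05 on LEN-GFP and 9.77 on SCR. Its SH1 array was the lowest of the 4, at -0.90 from the controls (limma adjusted p = 0.053), while SH3 was at -0.46 (limma adjusted p = 0.0849). SIL1, the other nucleotide exchange factor of HSPA5, reached the same level on both hairpins, 9.05 on SH1 and 9.05 on SH3, against 9.42 on LEN-GFP and 9.38 on SCR. SDF2L1, a partner of the co-chaperone DNAJB11, was also alike on both, with 8.27 on SH1 and 8.15 on SH3, against 8.62 on LEN-GFP and 8.53 on SCR. Differences were -0.68 (SE 0.20) for HYOU1, -0.35 (SE 0.11) for SIL1 and -0.37 (SE 0.11) for SDF2L1, with unadjusted p of 0.0189, 0.0249 and 0.0238 in limma.

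One J protein went the opposite way on the hairpins. DNAJC10, which reduces disulfides of chains on their way to degradation, had 9.90 on SH1 and 11.01 on SH3, against 10.43 on LEN-GFP and 10.18 on SCR. It was below both controls on SH1 (-0.41) and above both on SH3 (0.70, limma adjusted p = 0.0119), so that the mean difference of 0.15 (SE 0.37) describes neither hairpin. The other co-chaperones DNAJB9, DNAJB11 and DNAJC1 lay between -0.21 and -0.10, MANF, a secreted cofactor of HSPA5, at -0.13, and CRELD2, a stress-induced secreted protein, at -0.050. SDF2, the constitutive relative of SDF2L1, was above both controls on both hairpins, at 0.20 (SE 0.11).

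The lectin cycle retains glycoproteins until they are folded, and its 4 genes all had lower means (median -0.25). On SH1 they lay between -0.17 and -0.019 from the controls, and on SH3 between -0.96 and -0.11. CANX, the membrane lectin chaperone calnexin, had 13.58 on SH1 and 13.07 on SH3, against 13.57 on LEN-GFP and 13.62 on SCR. SH1 lay between the controls and SH3 well below them, at 69.3% (limma adjusted p = 0.0022 for SH3 alone). CALR, its soluble relative calreticulin, had the same pattern, with 12.36 on SH1 and 12.01 on SH3, against 12.34 on LEN-GFP and 12.47 on SCR (limma adjusted p = 0.0246 for SH3 alone). UGGT1 and UGGT2 put glucose back on misfolded glycoproteins so that the lectins bind them again. UGGT2 had 9.25 on SH1 and 8.46 on SH3, against 9.57 on LEN-GFP and 9.27 on SCR, which put SH3 at 51.3% of the controls (limma adjusted p = 0.00647) and SH1 close to SCR. UGGT1 differed by -0.13 (SE 0.11) and was alike on both hairpins.

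The enzymes of disulfide formation (10 genes, 9 with a lower mean, median -0.21) included the member of widest difference. PDIA5, a protein disulfide isomerase reported to act on ATF6, had 8.91 on SH1 and 7.16 on SH3, against 9.50 on LEN-GFP and 9.29 on SCR. Its difference of -1.37 (SE 0.57) was the lowest of all 12892 genes tested, at rank 1. The hairpins stood far apart (SH3 minus SH1 -1.75 on the log2 scale), SH3 being at 21.2% of the controls (limma adjusted p = 1.96e-04) and SH1 at 71.2% (limma adjusted p = 0.263). With both hairpins in the fit its unadjusted p was 0.0627 in limma.

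TXNDC12, a small thioredoxin-like oxidoreductase of the endoplasmic reticulum, was the member called on each hairpin alone. It had 11.94 on SH1 and 11.71 on SH3, against 12.47 on LEN-GFP and 12.46 on SCR. The controls were nearly equal (SCR minus LEN-GFP -0.0099), and the nearest hairpin and control arrays were separated by a gap of -0.52. The difference was -0.64 (SE 0.11), with the smallest unadjusted p of the list (0.00181 in limma, rank 23 of all genes). It was called on SH3 (limma adjusted p = 0.00129) and, near the threshold, on SH1 (limma adjusted p = 0.0433). Under 5 of 7 other settings of the analysis 0 members were called on SH1.

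PDIA4, an isomerase with several thioredoxin domains, had 10.19 on SH1 and 9.95 on SH3, against 10.41 on LEN-GFP and 10.56 on SCR. It was lower on both hairpins, by -0.41 (SE 0.14, unadjusted p = 0.0303 in limma), and was called on SH3 alone (limma adjusted p = 0.0261). PDIA6, an isomerase that binds HSPA5, had 12.86 and 12.69 on SH1 and SH3, against 12.95 and 13.03 on LEN-GFP and SCR, with an adjusted p of 0.0409 for SH3 alone in limma. P4HB, the classical isomerase and a subunit of prolyl 4-hydroxylase, had 13.44 on SH1 and 13.39 on SH3, against 13.66 on LEN-GFP and 13.51 on SCR. Its groups did not overlap, the difference was -0.17 (SE 0.075), and the other probe set of the gene gave -0.28. Without LEN-GFP the difference of P4HB was -0.095. ERP44, which keeps oxidases and unassembled proteins in the compartment, differed by -0.20 and TXNDC11 by -0.22 with no overlap of the groups, and ERP29 by -0.12 with overlap.

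The oxidases that recharge the isomerases stood on opposite sides on SH3. ERO1B had 8.48 on SH1 and 7.69 on SH3, against 8.38 on LEN-GFP and 8.29 on SCR. It was above both controls on SH1 and below both on SH3 (-0.64, limma adjusted p = 0.0194). ERO1A, the oxidase known to respond to hypoxia, was at 0.013 on SH1 and 0.47 on SH3 (limma adjusted p = 0.0706), with the controls themselves apart (SCR minus LEN-GFP -0.37).

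The translocon genes were all lower on average (4 genes, median -0.25, and -0.16 without LEN-GFP). SEC61B, a small subunit of the channel, had 11.92 on SH1 and 11.80 on SH3, against 12.27 on LEN-GFP and 12.05 on SCR. SEC61A1, which forms the pore, had 12.26 and 12.09 on SH1 and SH3, against 12.55 and 12.30 on LEN-GFP and SCR. Both hairpin arrays lay below both controls for these genes, but SCR was also below LEN-GFP (SCR minus LEN-GFP -0.22 for SEC61B and -0.25 for SEC61A1). Differences were -0.30 (SE 0.11, unadjusted p = 0.0453 in limma) for SEC61B and -0.25 (SE 0.12) for SEC61A1, and without LEN-GFP they were -0.19 and -0.12. SEC62, which with SEC63 serves translocation of finished chains, had 11.04 on SH1 and 10.17 on SH3, against 10.85 on LEN-GFP and 10.86 on SCR. It was above the controls on SH1 and below them on SH3 (-0.69, limma adjusted p = 0.00606), while SEC63 differed by -0.14 (SE 0.11).

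Among the sensors and XBP1, the XBP1 gene stood apart from the sensors in its values. XBP1, the factor made after splicing by ERN1, had 11.61 on SH1 and 11.12 on SH3, against 11.98 on LEN-GFP and 11.68 on SCR. Both hairpins lay below both controls, SH1 by only a little, since SCR was itself below LEN-GFP (SCR minus LEN-GFP -0.31). The difference was -0.47 (SE 0.20), and SH3 was called on its own (-0.72, limma adjusted p = 0.00916). The array gives 1 value for all XBP1 transcripts, so that splicing cannot be read from it.

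The sensor mRNAs differed little. ATF6 had 12.08 on SH1 and 11.83 on SH3, against 11.97 on LEN-GFP and 12.17 on SCR. ERN1 had 10.01 on SH1 and 10.04 on SH3, against 9.99 on LEN-GFP and 9.80 on SCR. EIF2AK3 had 9.25 on SH1 and 9.39 on SH3, against 9.62 on LEN-GFP and 9.22 on SCR. For each of these the controls were farther apart than the group means, which differed by -0.11 (SE 0.13) for ATF6, 0.13 (SE 0.12) for ERN1 and -0.10 (SE 0.17) for EIF2AK3. Single arrays set these values. ATF6 was at -0.011 without SCR, -0.24 without SH1 and 0.015 without SH3. ERN1 was at 0.031 without SCR, and EIF2AK3 at 0.10 without LEN-GFP.

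**Figure D3:**
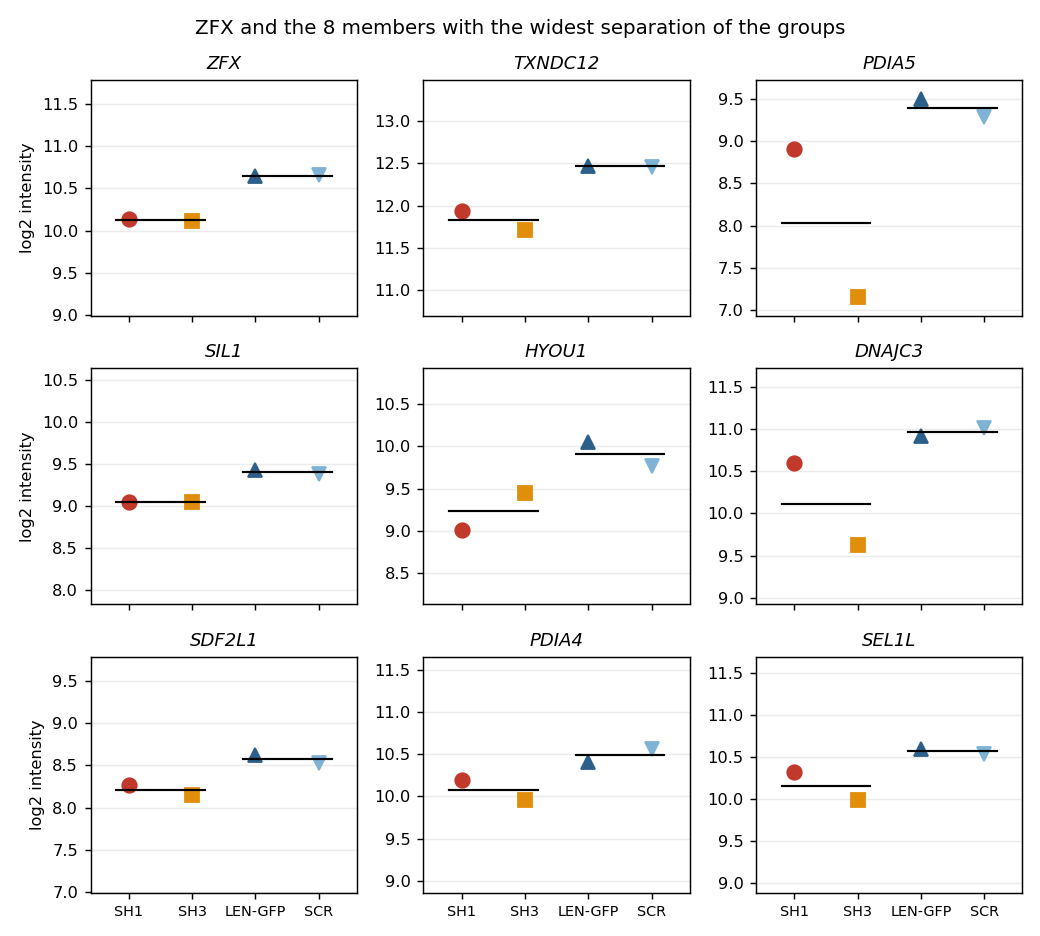
Log2 intensity of ZFX and of the 8 members whose nearest hairpin and control arrays were at least 0.2 apart, with the 2 hairpin arrays left of the 2 controls and black bars for group means. All panels span the same log2 range, and ZFX and SIL1 show nearly equal hairpin arrays while PDIA5 and DNAJC3 are lowest on ZFX-SH3 and HYOU1 on ZFX-SH1.

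The degradation factors (11 genes, 8 with a lower mean, median -0.10) were mixed, and the sign of their median rested on 1 control, since it was 0.0037 without LEN-GFP. On SH1 all 11 lay below the mean of the controls, between -0.37 and -0.015 with a median of -0.19, and 8 lay below both controls (34.8% of all genes). The controls differed by as much, SCR being below LEN-GFP for 10 of the 11 (58.6% of all genes) by a median of -0.19. On SH3 the 11 genes spread from -0.79 to 0.37 with a median of -0.00045. SEL1L, the adaptor of the ubiquitin ligase SYVN1, had 10.32 on SH1 and 9.98 on SH3, against 10.59 on LEN-GFP and 10.53 on SCR. SELENOS, a selenoprotein that anchors the segregase VCP at the membrane, had 7.95 on SH1 and 7.40 on SH3, against 8.30 on LEN-GFP and 8.09 on SCR. Both genes were lower on both hairpins and called on SH3 alone, with differences of -0.41 (SE 0.15) and -0.52 (SE 0.21) and limma adjusted p of 0.0147 and 0.00977 for SH3. DERL2, a derlin of the retrotranslocation channel, was also below both controls on both hairpins, at -0.21 (SE 0.10).

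SYVN1 itself had 9.75 on SH1 and 10.07 on SH3, against 10.24 on LEN-GFP and 9.91 on SCR. HERPUD1, a stress-induced scaffold of that ligase complex, had 11.45 on SH1 and 11.86 on SH3, against 11.82 on LEN-GFP and 11.48 on SCR. Both overlapped the controls, which were themselves apart (SCR minus LEN-GFP -0.33 for SYVN1 and -0.34 for HERPUD1), and SYVN1 was at 0.0043 without LEN-GFP. EDEM1, which helps to extract misfolded glycoproteins after mannose trimming, had 11.19 on SH1 and 11.69 on SH3, against 11.30 on LEN-GFP and 11.34 on SCR. It was below both controls on SH1 and above both on SH3, where it was called higher (0.37, limma adjusted p = 0.0425). DERL1 was split likewise, at -0.37 on SH1 and 0.071 on SH3. The mannosidase relatives EDEM2 and EDEM3, the lectin OS9 and DERL3 lay between -0.10 and 0.020.

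**Figure D4:**
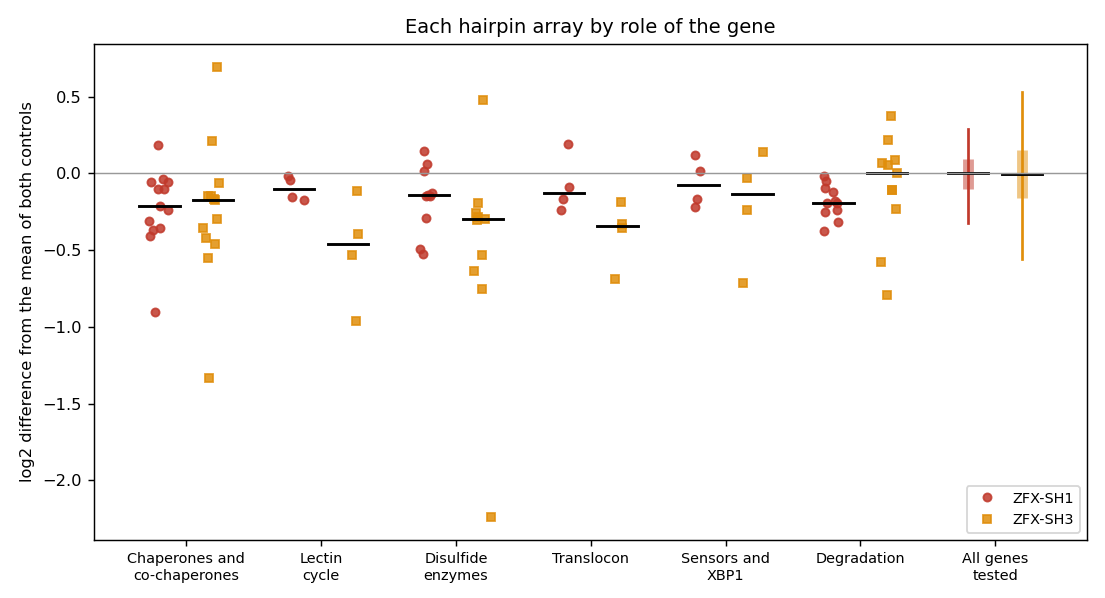
Points are genes by role, in circles for ZFX-SH1 and squares for ZFX-SH3, with log2 difference from the mean of both controls on the vertical axis and black bars for medians. For all 12892 genes the thick bar spans the 25th to the 75th percentile and the line the 5th to the 95th, and the degradation group has medians of -0.19 on ZFX-SH1 and -0.00045 on ZFX-SH3.

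Set side by side, the roles had similar medians on SH1, -0.21 for chaperones, -0.10 for the lectin cycle, -0.14 for disulfide enzymes, -0.13 for the translocon and -0.19 for degradation. On SH3 the medians were -0.17, -0.46, -0.30, -0.34 and -0.00045 in the same order, and -0.13 for the sensors with XBP1, which had -0.076 on SH1. Both hairpins lay below both controls for 9 of 13 chaperone genes, 2 of 4 lectin cycle genes, 7 of 10 disulfide genes, 2 of 4 translocon genes, 1 of 4 sensor genes and 3 of 11 degradation genes, where 19% of all genes did. On SH3 alone, genes called lower numbered 3, 3, 5, 1, 1 and 2 in these roles, where 6.9% of all genes were called. The difference between roles was not tested.

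Neighbouring steps were followed in lists of other genes, to be read against the 50.8% of all genes with a lower mean and the 6.9% called lower on SH3. Oligosaccharyltransferase, signal recognition and signal peptidase genes had 21 of 29 tested genes with a lower mean (median -0.11, and -0.058 without LEN-GFP), and 3 called lower on SH3, among them SRPRB, a subunit of the signal recognition receptor, at -0.53. Other folding enzymes had 21 of 23 with a lower mean (median -0.20, but -0.063 without SH3 and -0.098 without LEN-GFP) and 5 called lower on SH3. In that list KDELR3, a receptor that returns chaperones to the compartment, had 8.74 on SH1 and 6.84 on SH3, against 8.59 on LEN-GFP and 8.54 on SCR. TMX1, a membrane-bound oxidoreductase, had 11.94 on SH1 and 10.89 on SH3, against 11.90 on LEN-GFP and 11.85 on SCR. Both were called lower on SH3 (-1.72 and -0.98 from the controls), and SH1 lay above both controls.

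COPII genes, which carry cargo out, had 10 of 11 with a lower mean, where 50.8% of all genes did. They had 2 called lower on SH3, SEC24D (-1.04) and SEC23B (-0.37), where 6.9% of all genes were. Their median of -0.14 was -0.065 without SH1, -0.24 without SH3, -0.074 without LEN-GFP and -0.28 without SCR. Other degradation genes had 14 of 20 with a lower mean (median -0.024, and between -0.085 and -0.033 with any 1 array left out). On SH3 0 of them were called, and on SH1 1 was called lower, where 0.248% of all genes were. That gene was UBE2J1, a ubiquitin-conjugating enzyme of this pathway, at -0.64 on SH1 (limma adjusted p = 0.0295) and -0.074 on SH3. The PERK and ATF4 arm had 8 of 10 with a lower mean (median -0.20) and 0 called on SH3, but SCR was below LEN-GFP by a median of -0.43 in that list, and the median difference was 0.031 without LEN-GFP and 0.089 without SH1. ASNS and TRIB3 of that list were at -0.61 and -0.52. Cytosolic chaperones had 15 of 22 with a lower mean (median -0.017, but 0.027 without SH3 and 0.0089 without SCR), and 1 was called lower and 1 higher on SH3. BAG3 of that list was at -0.38 and DNAJB6 at 0.19. In the fit of both hairpins 0 genes of these 6 lists passed an adjusted p of 0.05 in limma.

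Some genes of cell identity also stood apart on single hairpins, and their part in these results was not tested. MPO, a granule enzyme that is folded in the endoplasmic reticulum, had 13.30 on SH1 and 12.31 on SH3, against 13.30 on LEN-GFP and 13.36 on SCR. CSF1R, the receptor of a monocyte growth factor, had 9.92 on SH1 and 9.17 on SH3, against 9.04 on LEN-GFP and 8.89 on SCR. It was the 1 of 8 myeloid markers measured that lay above both controls on both hairpins, mainly through SH1, where 18.2% of all genes did so. Below both controls on both hairpins lay 0 of the 8, where 19% of all genes did. The summed intensity of the 8 markers was 49474 on SH1 and 44738 on SH3, against 50280 on LEN-GFP and 49632 on SCR. The lower sum on SH3 came mainly from MPO. On the SH3 array MPO and LYZ lay below both controls, CSF1R, ITGAM and CD14 above both, and SPI1, CEBPA and CD68 between them. B and plasma cell markers (8 of 9 measured, 3 above the limit on dim genes) summed to 932.0 on SH1 and 1555 on SH3, against 919.9 on LEN-GFP and 902.5 on SCR. That sum on SH3 came mainly from PRDM1, a transcription factor of plasma cells and of myeloid cells, with 7.93 on SH1 and 9.62 on SH3, against 7.82 on LEN-GFP and 7.62 on SCR. SDC1 (7.525 on SH1 to 7.75 on SH3) and CD79A (7.81 on LEN-GFP to 7.92 on SH1) also lay above the limit on dim genes on every array. MZB1, JCHAIN, TNFRSF17, IRF4 and MS4A1 lay under it on every array. Among these MS4A1 had 5.34 on SH1 and 6.04 on SH3, against 5.33 on LEN-GFP and 5.34 on SCR.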

How the data were processed

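RNA of 4 NOMO-1 cultures (200 ng each, Trizol extraction, Ambion WT labelling) was hybridised to 1 array each, per the labels' protocols. The authors deposited 1 linear intensity per probe set and array; Affymetrix Expression Console 1.1 and RMA are named in the submitters' processing notes, and how RMA's log2 values were made linear is not stated there. RMA makes array distributions alike, so a change in total RNA is not visible, and it compresses differences of dim genes. No detection calls were used, and the number of arrays limits precision. The log2 of each intensity was taken as it stands. Gene names came from the platform annotation, in which of 33297 probe sets 19460 had 1 symbol, 1754 several and 12083 none. The brightest probe set stood for each of 18417 genes, and the dimmest 30% were left out, which gave 12892. The hairpin and control arrays entered a linear model in limma 3.58.1, R 4.3.3 (lmFit and eBayes with intensity trend, two-sided, Benjamini-Hochberg over all genes, threshold 0.05, 2 residual and 2.95 prior degrees of freedom), tested on simulated data. Each hairpin was also fitted alone against both controls, where the control pair alone gave the residual spread. Lists were described by counts and medians.

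The members, their roles and the other lists were chosen with earlier results of these data known. Values on every array are given for a set of central genes, the 2 widest differences per role, members called in any fit and members with a gap of at least 0.2. Promoter sequences are from RefSeq (GRCh38.p14). DNAJC1, DERL1 and DERL3 were not searched. Alternatives covered the filter, the variance model, the probe set rule, the normalization and leaving out each array.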

Additional observations from a re-analysis of the deposited data

How the results depend on the processing

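With 4 arrays, differences of the size seen for most members cannot be told from the spread between constructs. No paired analysis was possible because the labels give no replicate numbers. The count of members with a lower mean stayed between 35 and 41 and their median between -0.25 and -0.15 when arrays were left out. With arrays left out, between 0 and 1698 genes and between 0 and 17 members passed adjustment in limma, the upper values without SH1 (where ZFX had an adjusted p of 0.0181), and 54 genes and 1 member without SH3. ZFX ranged from -0.54 to -0.52. Medians ranged from -0.22 to -0.17 for chaperones, -0.46 to -0.10 for the lectin cycle, -0.30 to -0.14 for disulfide enzymes, -0.34 to -0.13 for the translocon, -0.15 to -0.057 for sensors and -0.19 to 0.0037 for degradation, the last without LEN-GFP. For the other lists they ranged from -0.15 to -0.058 for oligosaccharyltransferase and signal recognition, -0.25 to -0.063 for other folding enzymes, -0.085 to -0.033 for other degradation, -0.28 to -0.065 for COPII, -0.38 to 0.089 for the PERK and ATF4 arm and -0.046 to 0.027 for cytosolic chaperones. Leaving out the dimmest 50% of genes put the chaperone median at -0.17, and averaging probe sets put other degradation at -0.055. On SH1, members called lower were 0, in place of 1, with no filter, the 50% filter, no trend, ordinary statistics or centring on medians, while averaged probe sets and repeated quantile normalization gave 2. On SH3, ordinary statistics gave 0 lower and 0 higher members; members called higher were 1 with no filter, no trend or centring, and 3 with repeated quantile normalization. Over the left-out arrays ATF6 ranged from -0.24 to 0.015, ERO1B from -0.64 to 0.15, SEC62 from -0.69 to 0.19, DNAJC10 from -0.41 to 0.70, EDEM1 from -0.12 to 0.37 and HERPUD1 from -0.19 to 0.22, each changing sign without SH3. HERPUD1 was also at -0.16 without SCR. EIF2AK3 ranged from -0.30 to 0.10 and SYVN1 from -0.32 to 0.0043, changing sign without LEN-GFP. The causes were not tested.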
